A study of Mus musculus with 24 samples.

Results

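The comparison described here sets preleukaemic B cell precursors that carry the BCR/ABLp190 fusion oncogene and have lost 1 copy of Pax5 against precursors that carry it with Pax5 intact. It asks what the Pax5 copy number changes in gene expression before leukaemia appears. The 2 groups were taken from the sample titles and make up 6 of the 24 arrays of the series, 1 array per mouse sample, 3 in each group. Of 19938 measured genes, the 19106 on autosomes were compared, each by 1 probe set. Heterozygous precursors are pro-B and pre-B cells from Sca1-BCR/ABLp190+Pax5+/- mice, and precursors with both copies are the same cells from Sca1-BCR/ABLp190 mice, so both groups carry the oncogene. The third precursor group, from wild-type mice without the oncogene, has 4 arrays by the labels, where the series text counts 3 mice, and serves here as the baseline. The study also holds leukaemic marrow of 7 heterozygous mice and of 2 mice with both copies, besides 5 arrays of normal B220+ marrow cells.

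The transgene is driven by the Sca1 promoter, which is active in haematopoietic stem and progenitor cells, so the cells measured descend from the cells in which it is on. The animals lived in a conventional facility and met common pathogens, per the labels, which give no age and no treatment. In bulk samples such as these, fewer cells of a type and less RNA per cell cannot be told apart.

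PAX5 is the transcription factor that commits lymphoid progenitors to the B lineage: it switches on genes of the B cell receptor and its signalling, such as Cd79a and Blnk, and represses genes of other lineages, such as Flt3 and Notch1. In pro-B and pre-B cells it works with EBF1 and E2A proteins, and PAX5 and IKZF1 are also known to hold back glucose uptake and ATP supply in these cells. BCR/ABL is a constantly active tyrosine kinase, and loss of 1 PAX5 copy is frequent in human leukaemia that carries it.

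Of the autosomal genes, 5 passed the test between the oncogene-bearing groups (limma, Benjamini-Hochberg adjusted p under 0.05), a share of 0.0262%: Hdac11 and Edaradd fell (0.0105%), and Synpo2, Smoc1 and Rassf2 rose (0.0157%) in heterozygous precursors. The stretches of 250 bases before the annotated start of 4 of these genes are shown as the promoters next to genes called between the groups. They run 5′ to 3′ on the gene's strand and come from RefSeq on GRCm38.p6. Capitals mark matches, on either strand, to GCGTNAC, a core of PAX5 sites or to CAGGTG, an E-box that E2A proteins can bind.
Hdac11, chr6:91156565-91156814, plus strand: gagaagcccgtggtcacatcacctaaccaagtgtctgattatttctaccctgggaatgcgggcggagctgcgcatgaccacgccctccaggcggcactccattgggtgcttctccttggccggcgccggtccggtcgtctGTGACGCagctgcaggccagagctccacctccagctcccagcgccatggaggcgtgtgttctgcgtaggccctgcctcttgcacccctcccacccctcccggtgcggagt
Edaradd, chr13:12520451-12520700, minus strand: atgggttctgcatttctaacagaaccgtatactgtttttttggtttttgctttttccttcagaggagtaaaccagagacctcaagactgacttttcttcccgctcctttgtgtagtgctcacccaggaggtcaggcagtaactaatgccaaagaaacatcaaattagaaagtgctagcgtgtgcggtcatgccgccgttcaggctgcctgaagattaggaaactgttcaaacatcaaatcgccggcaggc
Synpo2, chr3:123236150-123236399, minus strand: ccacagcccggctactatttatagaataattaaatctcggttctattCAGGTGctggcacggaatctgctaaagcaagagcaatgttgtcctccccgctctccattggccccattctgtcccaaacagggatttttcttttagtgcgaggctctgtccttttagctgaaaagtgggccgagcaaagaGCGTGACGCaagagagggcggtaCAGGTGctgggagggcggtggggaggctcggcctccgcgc
Rassf2, chr2:132030325-132030574, minus strand: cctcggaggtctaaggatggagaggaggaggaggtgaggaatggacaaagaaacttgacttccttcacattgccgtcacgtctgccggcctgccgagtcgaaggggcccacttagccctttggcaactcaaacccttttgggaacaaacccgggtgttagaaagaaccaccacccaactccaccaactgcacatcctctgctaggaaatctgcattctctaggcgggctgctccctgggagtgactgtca

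The Hdac11 promoter held 1 match to GCGTNAC, 110 bases before the start. The Synpo2 promoter held 2 matches to it, at 63 and 61 bases before the start, on opposite strands and overlapping each other, and 2 to CAGGTG, at 203 and 40 bases. Among 32851 RefSeq promoter stretches of the same length, 5.05% held GCGTNAC and 17.2% held CAGGTG. The letters of either motif were not found in the windows of Edaradd and Rassf2. A match is a string of letters and no measurement of binding.

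Hdac11, a histone deacetylase that stands alone in its class and also removes fatty acyl groups from proteins, had the smallest p. Its log2 level was 7.16, 7.17 and 7.11 in heterozygous precursors, against 7.98, 7.93 and 8.14 in precursors with both copies and 7.67, 7.85, 7.88 and 7.84 in wild-type precursors. All 3 heterozygous arrays lay below each of the other 7. The fall was 0.87 ± 0.07 on the log2 scale (SE), or 1.82-fold, with an adjusted p of 0.0105 (limma).

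Edaradd encodes the adaptor that links the ectodysplasin receptor EDAR to NF-kB, a pathway best known from hair and tooth development. Its log2 level was 8.21, 7.84 and 7.72 in heterozygous precursors, against 9.05, 9.35 and 9.55 in precursors with both copies and 9.35, 9.39, 9.40 and 9.44 in wild-type precursors. The heterozygous arrays again stood below all others, and the fall was 1.40 ± 0.14 (log2, SE), or 2.63-fold, with an adjusted p of 0.0237 (limma). Against wild type, Edaradd was lower by 1.47 in heterozygous precursors (log2 difference -1.47, adjusted p 0.00235, limma), while precursors with both copies differed from wild type by -0.07 (adjusted p 0.681).

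Synpo2, an actin-binding protein of muscle Z-discs, measured 7.24, 7.30 and 7.50 in heterozygous precursors, against 6.13, 6.19 and 6.51 in precursors with both copies and 6.54, 6.39, 6.66 and 6.50 in wild-type precursors. Its rise was 1.07 ± 0.11 (log2, SE), or 2.09-fold, with an adjusted p of 0.0257 (limma). Smoc1, a secreted calcium-binding matrix protein of the SPARC family, measured 8.15, 7.79 and 8.20 in heterozygous precursors, against 6.72, 6.66 and 7.03 in precursors with both copies and 6.57, 6.51, 6.46 and 6.80 in wild-type precursors. Its rise was 1.24 ± 0.14 (log2, SE), or 2.37-fold, with an adjusted p of 0.0272 (limma). For both genes the lowest heterozygous array lay above the highest of the other 7 arrays.

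Rassf2, a Ras-association domain protein that binds K-Ras and acts as a tumour suppressor, measured 10.68, 10.51 and 10.54 in heterozygous precursors and 10.01 on each of the 3 arrays with both copies, against 10.30, 10.17, 10.14 and 10.16 in wild-type precursors. Its rise was the smallest of the 5, at 0.56 ± 0.06 (log2, SE), or 1.48-fold, with an adjusted p of 0.0284 (limma). The SD among the 3 arrays with both copies was 0.000742, far under the median within-group SD of 0.114 over autosomal genes. In all 5 genes the heterozygous group also differed from wild type past the test, as did 4.18% of autosomal genes. Precursors with both copies, where 27.2% of genes passed, did not (adjusted p between 0.0517 and 0.681, limma). These comparisons share arrays, so the values stand side by side and are not independent.

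**Figure D1:**
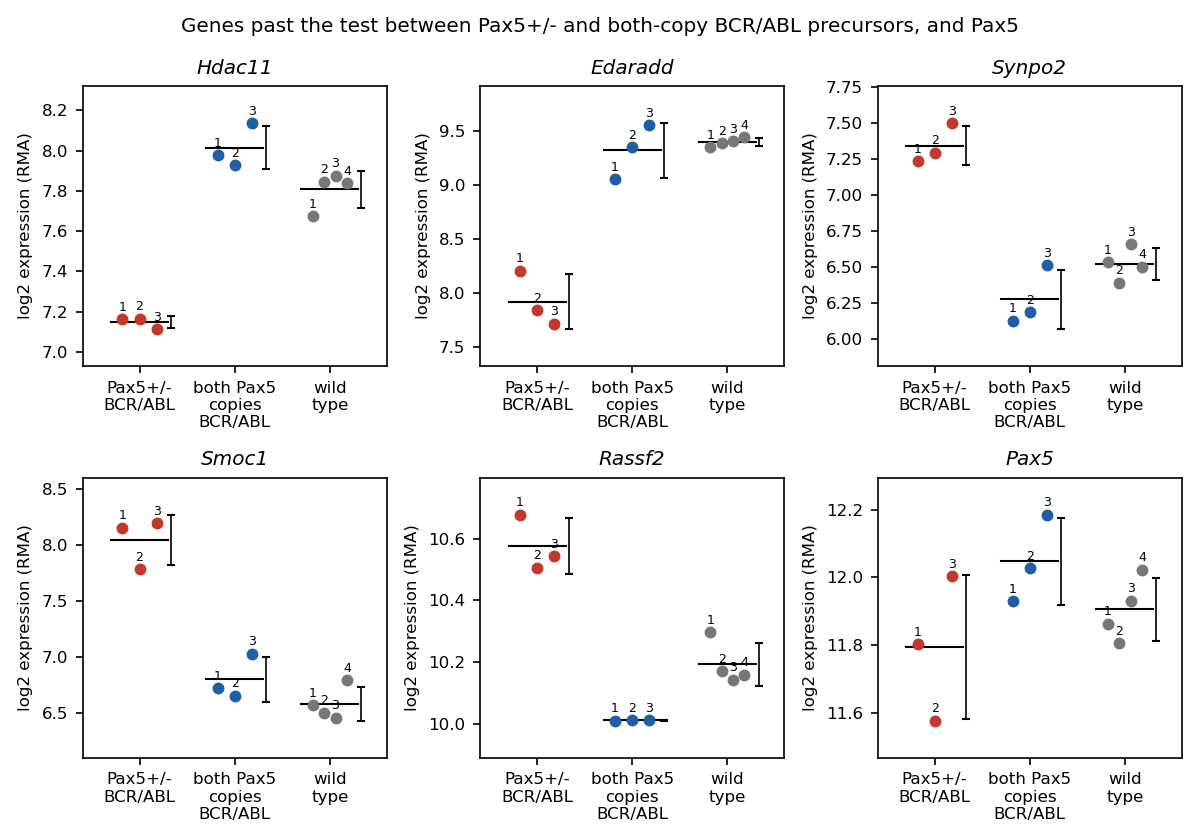
Log2 expression of the 5 genes that passed the test, and of Pax5, on each precursor array, with the heterozygous BCR/ABL group on the left, the BCR/ABL group with both copies in the middle and wild type on the right. Points are arrays with their replicate numbers, lines are group means and bars show 1 SD. In Hdac11 and Edaradd the 3 heterozygous arrays sit below all others, in Synpo2, Smoc1 and Rassf2 above them, while the Pax5 groups overlap.

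How far these calls hold depends on which arrays share the estimate of the spread. Wild-type arrays varied least over autosomal genes (median within-group SD 0.085, against 0.108 in heterozygous precursors and 0.114 in those with both copies). For Edaradd the SD was 0.04 in wild type and 0.25 in each oncogene-bearing group, so wild type lowered the shared spread behind its SE. Wild type also had the lowest SD in Synpo2 and Smoc1, but not in Hdac11 and Rassf2. Arrays of the 2 oncogene-bearing groups that share a replicate number departed from their group means together (r of 0.207, 0.219 and 0.263 across genes), and with the replicate number as a block over these 6 arrays none of the 5 passed (adjusted p 0.514 for each, limma), 0 genes being called and 1851 reaching an unadjusted p under 0.05. The count was 0 with the 6 arrays alone (1758 at an unadjusted p under 0.05), 1 without heterozygous array 1, without array 2 with both copies or without any 1 of the 4 wild-type arrays, 3 without array 1 with both copies, 16 without heterozygous array 3 and 134 without heterozygous array 2. Rassf2 lost its call in 17 of 25 settings, among them cyclic loess (adjusted p 0.16), quantile normalization (0.114), an intensity-dependent prior (0.132) and a filter on dim genes (0.0975, limma). Of the calls, 3 were higher and 2 lower as deposited, 2 and 4 after cyclic loess, 2 and 3 after quantile normalization and 5 and 2 after median centring. The 5 differences kept their sign: Hdac11 stayed between -0.96 and -0.79, Edaradd between -1.55 and -1.18, Synpo2 between 0.99 and 1.18, Smoc1 between 1.17 and 1.37 and Rassf2 between 0.42 and 0.64 over all settings tried.

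Genes next in order by p, among those whose oncogene-bearing groups did not overlap, did not pass. On the higher side these were Myl4, an atrial and embryonic myosin light chain, with a log2 difference of 0.47 ± 0.06, the tetraspanin Tspan32 with 0.62 ± 0.08, and Usp10, a deubiquitinase that acts on p53, with 0.49 ± 0.07 (SE, adjusted p 0.0621 for each, limma). Myl4 was already among the brightest genes, at 12.87, 13.00 and 13.06 in heterozygous precursors against 12.47, 12.52 and 12.52 in those with both copies. On the lower side were the microtubule-binding protein Map7 (log2 difference -0.49, adjusted p 0.109), the kinase Camk1g (-0.85, adjusted p 0.122) and Mical3, an enzyme that oxidises actin (-0.79, adjusted p 0.144, limma).

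Enpep encodes the aminopeptidase known on mouse precursor B cells as the BP-1 antigen, a marker of late pro-B and large pre-B cells. It measured 6.66, 6.25 and 6.29 in heterozygous precursors, against 8.13, 7.84 and 7.99 in precursors with both copies and 8.78, 9.77, 9.51 and 8.70 in wild-type precursors. The 3 groups did not overlap, which for the 2 oncogene-bearing groups was a condition of naming the gene. The difference between these 2 was -1.58 ± 0.27 (log2, SE, adjusted p 0.122, limma). Against wild type the difference was -2.79 in heterozygous precursors (adjusted p 0.00235) and -1.21 in precursors with both copies (adjusted p 0.0102, limma).

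Ctse, the aspartic protease cathepsin E, had the largest difference of all autosomal genes in size, 2.65 ± 0.43 on the log2 scale (SE), and did not pass (adjusted p 0.111, limma). It was chosen for mention after its values were seen. It measured 12.01, 11.53 and 12.46 in heterozygous precursors, against 10.55, 8.73 and 8.77 in precursors with both copies and 12.39, 12.32, 12.34 and 12.43 in wild-type precursors. The heterozygous arrays were near the wild-type level and all 3 arrays with both copies were below it. Heterozygous precursors differed from wild type by -0.37 (log2, adjusted p 0.597), and precursors with both copies by -3.02 (adjusted p 0.00315, limma).

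Some genes differed between single arrays rather than between groups. Kcnma1, the pore subunit of the large-conductance calcium-activated potassium channel, measured 13.89, 12.77 and 6.32 in heterozygous precursors, against 6.92, 13.88 and 6.26 in precursors with both copies and 12.62, 11.43, 13.29 and 8.68 in wild-type precursors. It was high on 2 of 3 heterozygous arrays and on 1 of 3 with both copies, and its difference of 1.98 ± 2.37 (log2, SE) was smaller than its error. Ly6d, a surface antigen that marks lymphoid progenitors turning to the B lineage, measured 12.49, 12.80 and 13.09 in heterozygous precursors, against 9.75, 11.78 and 12.54 in precursors with both copies (adjusted p 0.332, limma).

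**Figure D2:**
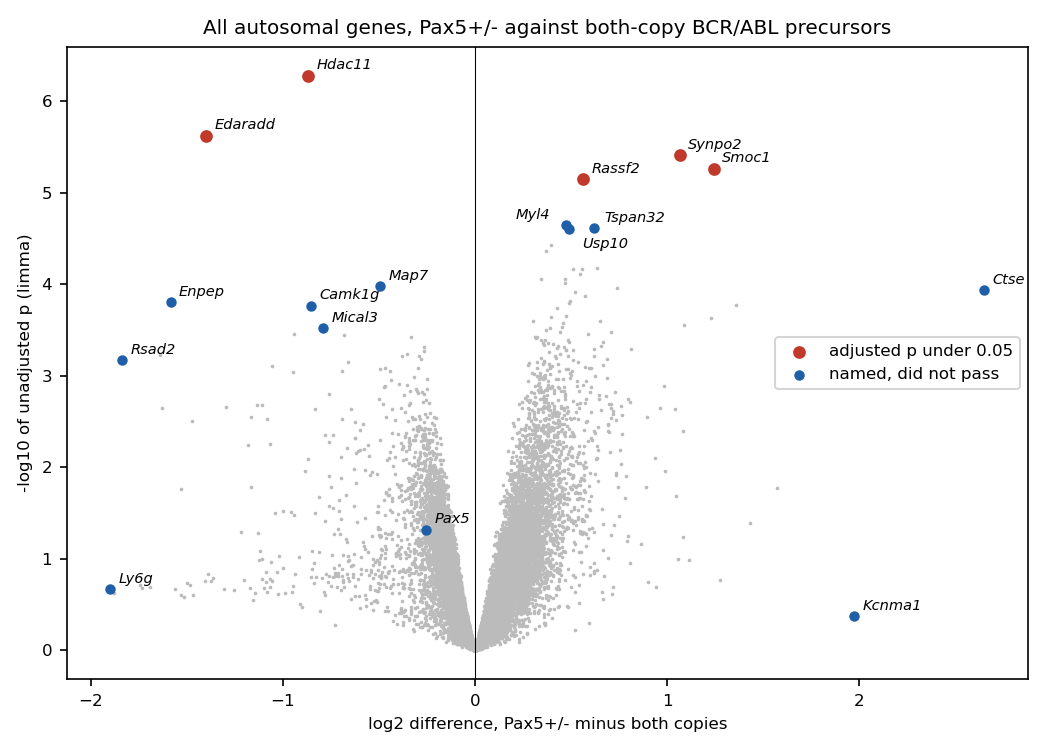
Log2 difference of each autosomal gene, heterozygous minus both copies, against the negative log10 of its unadjusted p from limma. Red points are the 5 genes past the adjusted threshold, blue points are other genes named in the text, and grey points are the rest. Ctse lies farthest to the right, at 2.65, below the genes that passed.

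Pax5 itself did not differ past the test, with a log2 difference of -0.25 ± 0.11 (SE, 95% confidence interval -0.50 to -0.0027, adjusted p 0.345, limma) and overlapping arrays. No source used here says which exons the Pax5 probes cover or which were removed, so this level does not check the labels. Abl1, whose probes may also read the transgene, measured 10.81, 10.28 and 10.50 in heterozygous precursors against 10.12, 10.19 and 10.05 in those with both copies (log2 difference 0.41 ± 0.12, SE, adjusted p 0.206), and Bcr differed by -0.07 (adjusted p 0.777, limma). Of the 25 measured genes on each side of Pax5 on chromosome 4, 0 passed by limma and 12 reached an unadjusted p under 0.05. That share was above the 14.4% of all autosomal genes and above the share on any whole autosome. Of the 12, 7 had higher and 5 lower levels in heterozygous precursors. The neighbours on either side were Zcchc7, among the 12 with a log2 difference of 0.37, and Melk, which did not reach that p (0.12). Over the whole of chromosome 4 the share was 16.6%, within the range over autosomes of 11.7% to 17.9%.

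Without adjustment, 2755 autosomal genes reached an unadjusted p under 0.05, 9.02% of genes with higher and 5.4% with lower levels in heterozygous precursors. Gene lists are described against these shares and against the median log2 difference of all autosomal genes, which was -9.87e-05. Of the 19106 autosomal genes, 9548 had a difference above 0. Over the genes left by a filter on dim ones, the median difference was 0.11. In all 43 lists of pathways and cell types, 0 members passed the adjusted test (limma), against 6 without heterozygous array 2 and 7 with array weights.

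Genes that PAX5 is known to activate or repress come first. Of 23 measured PAX5-activated genes, 5 reached an unadjusted p under 0.05, all with higher levels in heterozygous precursors, and the list's median log2 difference was 0.04 (-0.03 after cyclic loess and -0.02 without heterozygous array 3, against 0.15 without array 2). Fcer2a, the low-affinity IgE receptor CD23 of mature B cells, had the smallest p (log2 difference 0.56 ± 0.13, SE, adjusted p 0.161, limma). Id3, an inhibitor of E proteins, measured 9.29, 9.01 and 8.62 in heterozygous precursors, against 8.11, 8.43 and 8.43 in precursors with both copies and 8.20, 8.11, 8.10 and 8.16 in wild-type precursors. Cd72, a coreceptor that restrains B cell receptor signals, measured 12.15, 12.10 and 12.57 in heterozygous precursors, against 11.72, 11.70 and 11.69 in those with both copies. For Id3 and Cd72 the 2 oncogene-bearing groups did not overlap, as for 16.6% of autosomal genes. Cd79a, the signalling chain of the B cell receptor, measured 13.06, 13.15 and 13.17 in heterozygous precursors, against 13.02, 13.08 and 13.39 in those with both copies, and the groups overlapped.

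Of 23 measured PAX5-repressed genes, 0 reached an unadjusted p under 0.05, with a median log2 difference of 0.16, which was -0.12 without array 3 with both copies and -0.02 without array 3 of both groups. Lat, an adaptor of T cell receptor signalling, had the smallest p of this list (log2 difference 0.54 ± 0.28, SE, adjusted p 0.411, limma). Flt3, a cytokine receptor of lymphoid progenitors, measured 8.54, 8.54 and 6.62 in heterozygous precursors, against 7.80, 8.17 and 6.65 in those with both copies: in each group array 3 was the lowest. Notch1, the receptor that directs progenitors to the T lineage, measured 10.91, 10.44 and 10.77 in heterozygous precursors, against 10.59, 10.46 and 10.57 in those with both copies, with overlapping arrays.

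Among 30 B lineage transcription factors, 5 reached an unadjusted p under 0.05 and the median difference was 0.05. Mef2c, which supports B cell differentiation and survival, averaged 10.53 ± 0.02 in heterozygous precursors, against 10.15 ± 0.16 in precursors with both copies (SD, n = 3 each) and 10.66 ± 0.05 in wild-type precursors (SD, n = 4; log2 difference 0.38 ± 0.08, SE, adjusted p 0.149, limma). Ebf1, the partner of PAX5 in B lineage commitment, differed by 0.04 and Ikzf1 by 0.12, both with overlapping arrays.

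Stage markers and receptors gave single genes rather than whole lists. Of 17 pro-B and large pre-B stage genes 4, and of 25 small pre-B and immature stage genes 6, reached an unadjusted p under 0.05, with medians of 0.07 and 0.16. Il7r, the receptor chain through which IL-7 sustains these cells, measured 13.03, 12.84 and 13.17 in heterozygous precursors, against 12.75, 12.72 and 12.63 in precursors with both copies and 12.72, 12.66, 12.67 and 12.71 in wild-type precursors. Its log2 difference between the oncogene-bearing groups was 0.31 ± 0.08 (SE, adjusted p 0.186), and that between heterozygous and wild-type precursors 0.32 (adjusted p 0.0478, limma). Btla, an inhibitory receptor, and Ciita, the master regulator of MHC class II genes, differed by 0.77 and 0.41, and the class II chain H2-Eb1 by 0.78, none of them past the test.

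In the list of pre-B cell receptor and B cell receptor signalling, 7 of 20 members reached an unadjusted p under 0.05, 6 of them with higher levels, and the median difference was 0.07. Fyn, a Src-family kinase, measured 9.73, 9.57 and 9.72 in heterozygous precursors, against 9.09, 9.34 and 8.71 in precursors with both copies and 10.22, 10.16, 10.20 and 10.05 in wild-type precursors. Bank1, a B cell scaffold protein, measured 9.02, 8.69 and 9.71 in heterozygous precursors, against 7.92, 8.09 and 8.51 in precursors with both copies and 9.27, 9.38, 9.10 and 9.33 in wild-type precursors. Both were lowest in the group with both copies (log2 differences 0.63 ± 0.14 and 0.96 ± 0.23, SE, adjusted p 0.154 and 0.171, limma). Rasgrp3, a Ras activator downstream of the receptor, was the member with a lower level, at 7.35, 6.79 and 7.36 in heterozygous precursors against 7.88, 7.69 and 7.46 in those with both copies.

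Cholesterol and fatty acid synthesis, MYC activity with ribosome biogenesis, and DNA replication had the highest medians of the 31 pathway lists on the deposited values. Cyclic loess lowered them, to 0.12, 0.11 and 0.05, and without array 3 with both copies they were 0.13, 0.16 and 0.04. Their highest values over all settings were 0.30, 0.31 and 0.39. Of 33 measured genes of MYC activity and ribosome biogenesis, 31 had a difference above 0, 14 reached an unadjusted p under 0.05 with higher and 1, Mycn, with lower levels in heterozygous precursors, and the median was 0.23. The mean log2 level of the list was 9.40, 9.38 and 9.20 in heterozygous precursors, against 9.13, 9.21 and 8.96 in precursors with both copies and 9.63, 9.74, 9.70 and 9.61 in wild-type precursors. On this mean the heterozygous group lay between the others, with array 3 of heterozygous precursors just under array 2 with both copies, and within each pair of the same number the heterozygous array was the higher. Polr1b, the second largest subunit of RNA polymerase I, measured 8.50, 8.31 and 8.24 in heterozygous precursors, against 7.81, 8.03 and 7.76 in those with both copies (log2 difference 0.49 ± 0.09, SE, adjusted p 0.144, limma). Nop2, an rRNA methyltransferase, and Nolc1, a nucleolar phosphoprotein, differed by 0.43 and 0.40.

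Of 24 genes of cholesterol and fatty acid synthesis, 7 reached an unadjusted p under 0.05, all with higher levels, and the median was 0.25. Scd2, a stearoyl-CoA desaturase, measured 10.56, 10.24 and 10.28 in heterozygous precursors, against 9.15, 9.94 and 9.03 in precursors with both copies and 10.54, 10.42, 10.56 and 10.88 in wild-type precursors (log2 difference between the oncogene-bearing groups 0.98 ± 0.22, SE, adjusted p 0.161, limma). Fdft1, which makes squalene for cholesterol, and Fasn, the fatty acid synthase, differed by 0.62 and 0.57, without passing. The mean of the list was 8.68, 8.51 and 8.40 in heterozygous precursors, against 8.34, 8.43 and 8.10 in those with both copies, so the groups overlapped by 1 array, while within each pair of the same number the heterozygous array was again the higher.

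Against wild type, the 2 oncogene-bearing groups share the wild-type arrays, and each group's own count is given. Of the MYC and ribosome biogenesis genes, 4 were called lower in heterozygous precursors, where 2.92% of autosomal genes were called lower (limma, adjusted p under 0.05), and 26 in precursors with both copies, where 15.4% were. The list medians were -0.30 and -0.56. For cholesterol and fatty acid synthesis 6 and 15 genes were called lower (medians -0.26 and -0.60), for DNA replication 0 and 24 of 36 (medians -0.47 and -0.63), and for mitosis 2 and 21 of 34 (medians -1.13 and -1.19). The p-values were adjusted separately in each comparison, so the 2 counts of a list rest on unlike cutoffs of unadjusted p. The gap between them does not measure a difference between the oncogene-bearing groups. The direct test between the oncogene-bearing groups called 0 members of these lists, and 15, 7, 3 and 1 members of them reached an unadjusted p under 0.05.

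**Figure D3:**
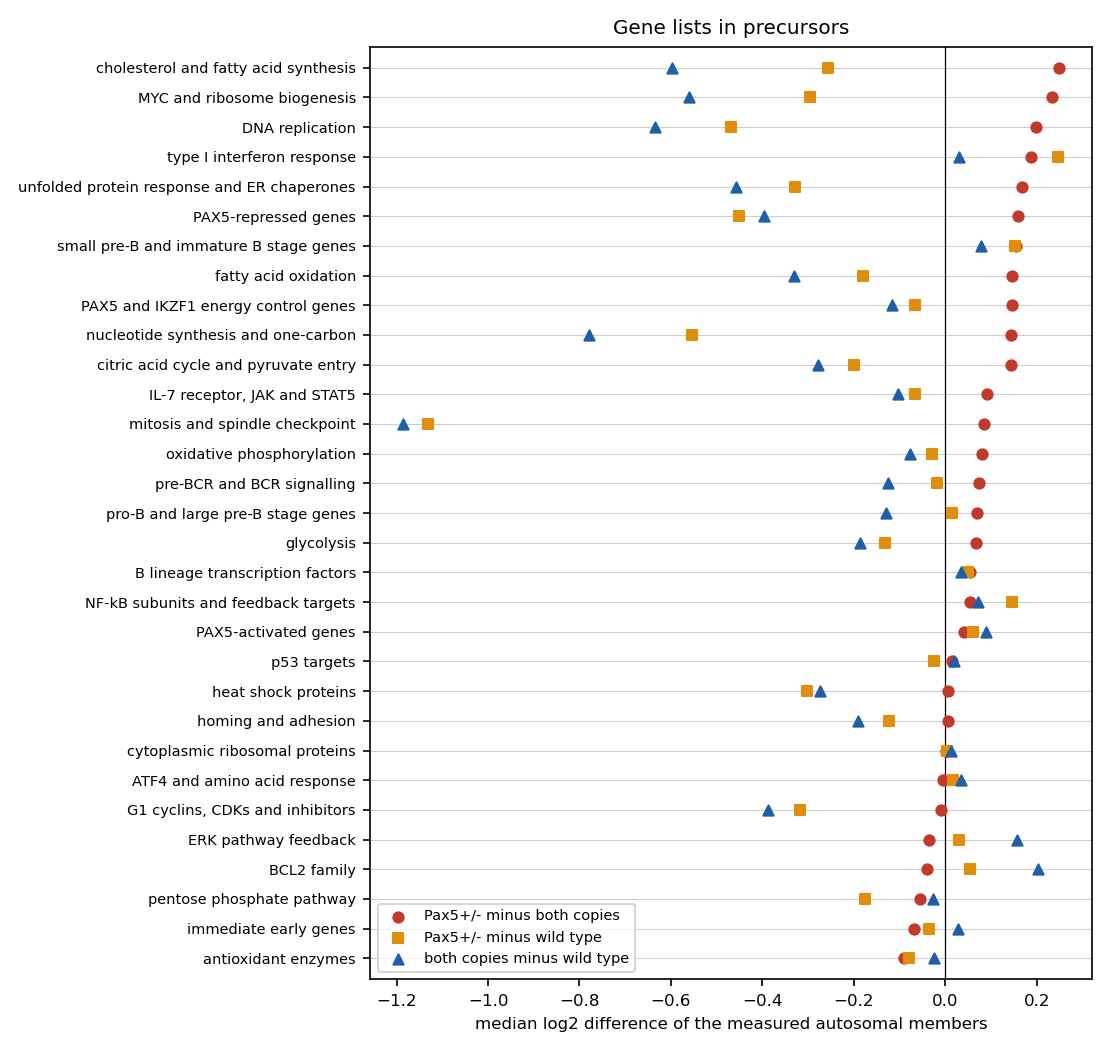
Median log2 difference of the measured autosomal members of each of 31 pathway lists in heterozygous precursors against those with both copies (circles), heterozygous against wild type (squares) and both copies against wild type (triangles). The circles lie between -0.09 and 0.25, with cholesterol and fatty acid synthesis and MYC and ribosome biogenesis at the top.

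In energy metabolism, 45 of 60 oxidative phosphorylation genes and 15 of 18 fatty acid oxidation genes had a difference above 0. Over all 19106 autosomal genes 9548 did, and the median over genes left by the filter on dim ones was 0.11. Of the oxidative phosphorylation genes, 12 reached an unadjusted p under 0.05, all with higher levels in heterozygous precursors. The list's median of 0.08 turned to -0.05 after cyclic loess and to -0.03 after quantile normalization, and was 0.02 without heterozygous array 2. Ndufv1, a subunit of complex I, measured 9.81, 9.80 and 9.67 in heterozygous precursors, against 9.37, 9.44 and 9.14 in precursors with both copies and 9.93, 9.90, 9.93 and 9.85 in wild-type precursors (log2 difference 0.44 ± 0.08, SE, adjusted p 0.144, limma). In fatty acid oxidation 5 of 18 genes reached an unadjusted p under 0.05, all with higher levels, led by Hadhb, a subunit of the mitochondrial trifunctional protein (log2 difference 0.32 ± 0.07, SE, adjusted p 0.149, limma). The median of this list was 0.15, and 0.02 after cyclic loess.

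In glycolysis 5 of 20 genes did so, with a median of 0.07: Pdk1, which closes pyruvate entry into the citric acid cycle, differed by 0.66 ± 0.16, and the glucose transporter Slc2a1 by 0.37 ± 0.10 (log2, SE, adjusted p 0.172 and 0.198, limma). Slc2a1 measured 9.69, 9.66 and 9.58 in heterozygous precursors, against 9.27, 9.20 and 9.35 in those with both copies and 9.27, 9.28, 9.39 and 9.68 in wild-type precursors, where 1 array reached the heterozygous level. Of 16 genes of energy control downstream of PAX5 and IKZF1, 2 reached an unadjusted p under 0.05. Txnip, an inhibitor of glucose uptake, and Nr3c1, the glucocorticoid receptor, differed by 0.13 and 0.31 with overlapping arrays, and the cannabinoid receptor Cnr2 by -0.43.

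In the BCL2 family 5 of 14 genes reached an unadjusted p under 0.05, 4 of them with lower levels in heterozygous precursors, and the median was -0.04, against -0.12 after cyclic loess and 0.02 with array weights. Bbc3, which encodes the killer protein PUMA, measured 6.51, 6.57 and 6.47 in heterozygous precursors, against 6.80, 6.79 and 6.77 in precursors with both copies and 6.39, 6.47, 6.39 and 6.56 in wild-type precursors (log2 difference -0.26 ± 0.06, SE, adjusted p 0.162, limma). Hrk, another killer of the BH3-only class, differed by -0.29, and Bcl2l1, which encodes the survival protein BCL-XL, by -0.23. Both kinds of member, killers and survivors, were thus among those with lower values.

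Of 28 interferon response genes, 8 reached an unadjusted p under 0.05, 6 with higher and 2 with lower levels, and the median was 0.19. Rsad2, the antiviral enzyme viperin, measured 8.70, 7.87 and 8.19 in heterozygous precursors, against 10.87, 10.23 and 9.17 in precursors with both copies and 9.55, 10.10, 9.66 and 9.69 in wild-type precursors (log2 difference -1.83 ± 0.37, SE, adjusted p 0.149, limma). Isg20, an antiviral exonuclease, differed by -0.94. The RNA sensor regulator Dhx58 and the receptor transporter Rtp4 had differences of the opposite sign, 0.41 and 0.51. Of the 28 genes, 24 had a difference above 0, where 9548 of 19106 autosomal genes did.

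Arrays differed in other cell types and in cell division, whose part in the differences above was not tested. All 19 neutrophil markers had lower mean levels in heterozygous precursors (median log2 difference -1.41). The mean of this list was 7.11, 7.52 and 7.19 in heterozygous precursors, against 10.81, 7.58 and 7.24 in precursors with both copies and 9.33, 9.20, 7.17 and 7.09 in wild-type precursors, so 3 of the 10 arrays stood high. Ly6g, a neutrophil surface antigen, measured 6.97, 7.80 and 6.77 in heterozygous precursors, against 12.44, 8.31 and 6.48 in those with both copies. Erythroid markers averaged 7.96, 7.84 and 7.99 in heterozygous precursors, against 9.39, 8.30 and 8.21 in those with both copies, so array 1 with both copies was the highest for both cell types, and 3 of 8 erythroid markers reached an unadjusted p under 0.05 with lower levels in heterozygous precursors. Without the 3 arrays high in neutrophil markers, an alternative chosen after seeing the data, 0 genes passed (limma, 2515 at an unadjusted p under 0.05), while the log2 differences of Hdac11 and Edaradd were -0.89 and -1.53.

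Mitosis genes were low on array 3 of each oncogene-bearing group, with list means of 9.95, 9.81 and 8.48 in heterozygous precursors, against 9.83, 9.52 and 8.71 in precursors with both copies and 10.45 to 10.61 in wild-type precursors. Without those 2 arrays, also chosen after seeing the data, 10 genes passed, among them Hdac11, Edaradd, Synpo2 and Smoc1. NK cell marker means were 7.43, 7.85 and 6.89 in heterozygous precursors, against 6.84, 7.67 and 6.59 in those with both copies and 8.10 to 8.84 in wild-type precursors. B lineage markers averaged 11.47 to 11.67 on all 10 arrays, above every array's median, and T cell markers 6.36 to 6.76, under it. By Xist and Y-linked genes 2 heterozygous arrays came from males and 1 from a female, all 3 with both copies from males and all 4 wild-type arrays from females. Only the heterozygous group held both sexes, so a sex covariate rested on its 1 female array, array 3. That fit was identical to leaving array 3 out, which compares male arrays of the oncogene-bearing groups. In it 16 genes passed, including each of the 5. Between precursors with both copies, all male, and wild-type precursors, all female, sex and group cannot be told apart.

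**Figure D4:**
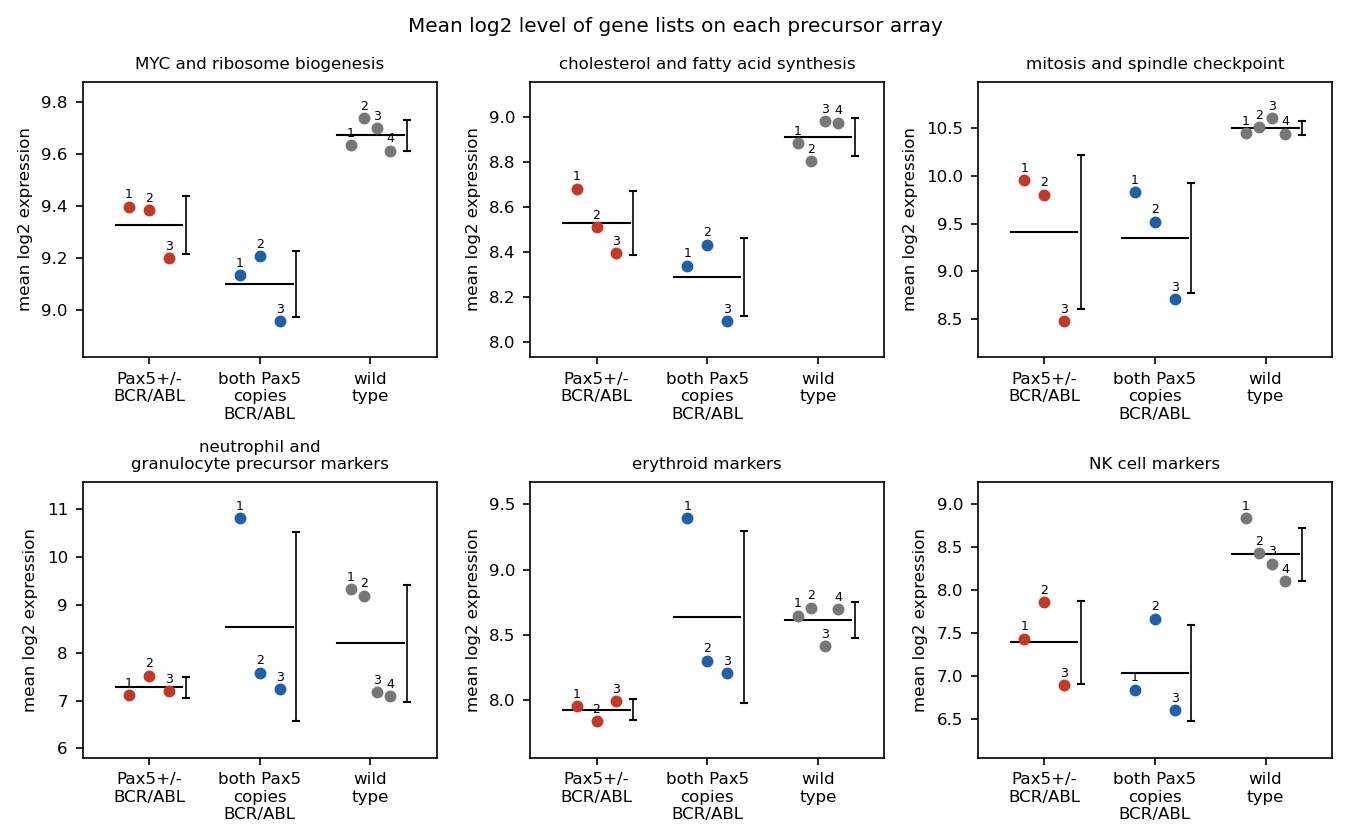
Mean log2 level of the members of 6 gene lists on each precursor array, with heterozygous BCR/ABL precursors on the left, BCR/ABL precursors with both copies in the middle and wild type on the right. Points carry replicate numbers, lines are means and bars show 1 SD. Array 1 with both copies stands apart in neutrophil (10.81) and erythroid (9.39) markers, and array 3 of each oncogene-bearing group is low in mitosis genes.

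Whether the difference between Pax5 copy numbers was the same after leukaemia arose was tested on all 24 arrays, as the precursor difference minus the leukaemia difference. By the titles, precursor arrays hold pro-B and pre-B cells and leukaemia arrays hold bone marrow cells. Stage and cell population thus cannot be told apart in this test. Of autosomal genes 136 passed (limma, adjusted p under 0.05), or 0.712%. A more positive difference in precursors was found for 92 (0.482%) and a more negative one for 44 (0.23%). Only 2 leukaemias had both copies, and the count was 296 without the first and 1332 without the second of them. It was 205 and 216 without heterozygous leukaemia 5 and 6, 80 without heterozygous precursor 1, and 52 and 58 without precursor 2 and 3 with both copies.

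Of the 5 precursor genes, Edaradd passed this test, by -1.46 ± 0.27 (log2, SE, adjusted p 0.014, limma). It was low in all leukaemias: between 6.04 and 7.07, with a median of 6.29, in the 7 heterozygous ones, and at 6.39 and 6.27 in the 2 with both copies. The leukaemia groups overlapped and differed by 0.06 (adjusted p 0.926). Without precursor 3 with both copies the stage difference was -1.34 with an adjusted p of 0.0526 (limma). With the replicate number as a block over the 4 oncogene-bearing groups it was -1.46 with an adjusted p of 0.222 (limma). Heterozygous leukaemias 4 to 7 share their numbers with no other array of these groups, so they did not contribute to that fit. Whether leukaemias deviate together with other arrays of the same number was not examined.

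Hdac11 had a log2 difference of -0.36 in leukaemias (adjusted p 0.0887), and its difference between stages was -0.50 ± 0.17 (SE, adjusted p 0.2, limma). Rassf2 differed by 0.56 in leukaemias, with an adjusted p of 0.157 there and of 0.997 for the difference between stages. For Enpep the difference between stages was -1.67 ± 0.40 (SE, adjusted p 0.0537, limma), and all its leukaemia arrays lay at or below 6.65. For Synpo2 the difference between stages was 1.22 (adjusted p 0.505), but it passed without heterozygous leukaemia 5 (1.63, adjusted p 0.00253, limma). Synpo2 also passed with the replicate block (1.82, adjusted p 0.0289, limma), to which leukaemia 5 did not contribute either. Smoc1 did not pass (adjusted p 0.757). Enpep passed without heterozygous leukaemia 5 (-1.71, adjusted p 0.0484, limma).

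**Figure D5:**
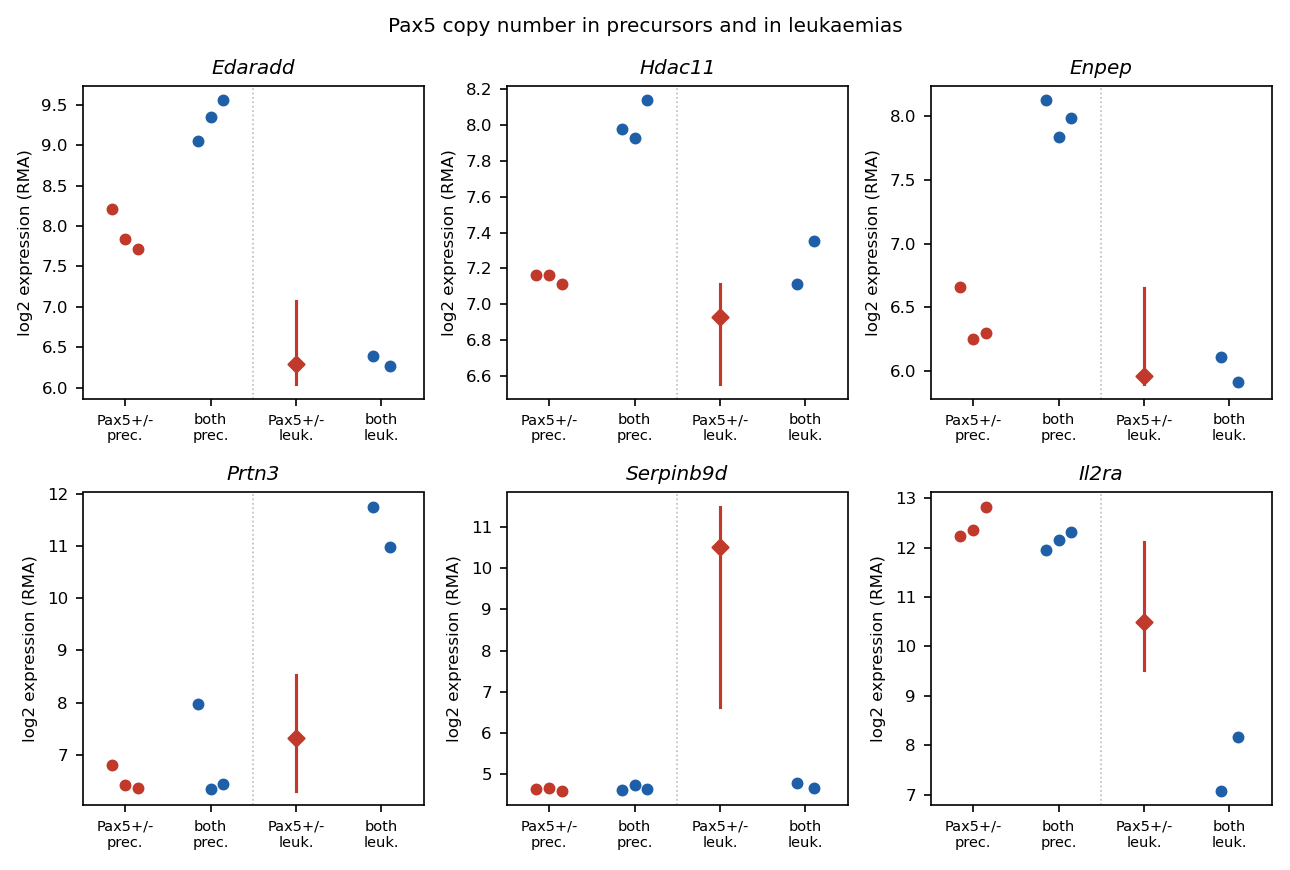
Log2 expression of 6 genes in precursors (left of the dotted line) and leukaemias (right), with heterozygous groups in red and groups with both copies in blue. Points are arrays, and for the 7 heterozygous leukaemias the diamond is the median and the bar the lowest to highest array. Edaradd, Hdac11 and Enpep separate by Pax5 copy in precursors, whereas Prtn3, Serpinb9d and Il2ra separate in leukaemias.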

How the data were processed

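Total RNA of 24 mouse samples was hybridised to Affymetrix mouse gene arrays, 1 per sample. The deposited values are log2 expression per probe set, which the authors made with RMA and the R package oligo according to the submitters' processing notes, without stated versions. They were used as deposited, with no filter on dim genes, and the number of arrays limits the precision.

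Of 35556 probe sets, 21789 had 1 gene symbol and were used; each gene was read by its brightest probe set on average over the 24 arrays. Samples were grouped by title, which calls the replicates biological. The 3 precursor groups (10 arrays) shared 1 estimate of the spread in limma 3.58.1 under R 4.3.3 (lmFit, contrasts.fit, eBayes, two-sided, Benjamini-Hochberg over all genes), and stages were compared on all 24 arrays. The fit was tested on simulated data in which arrays were independent and all groups had the same spread. That test does not cover same-numbered arrays that deviate together or groups of unequal spread.

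Named were Pax5, Abl1 and Bcr, and the called genes and up to 6 in each direction by p. These were taken among genes whose oncogene-bearing groups did not overlap, leaving out unnamed gene models and antigen receptor segments. Also named were the member of each list with the smallest p, and the 4 highest and 4 lowest stage differences among genes past that test. Other genes were named after their values were seen. Members, lists (43, with 894 of 973 members measured) and tests were chosen with earlier results of these data known. Same-numbered oncogene-bearing precursors deviated together in all 3 pairs, each with r over 0.1. Of differently numbered arrays, heterozygous 1 and number 2 with both copies also had r over 0.1 (0.140), and the rest had negative r. Same-numbered precursors were taken as paired on these values, since no label ties them to a litter or day. The block over the 4 oncogene-bearing groups extends the numbers to leukaemias, whose pairing was not examined.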

Additional observations from a re-analysis of the deposited data

Results flagged for a closer look

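Of 108 groups of 4 arrays examined, 2 held an array apart from the rest by Dixon's criterion at the 95% level, which chance meets in about 1 group in 20. Itgb3, an integrin chain of platelets, was 8.03 on wild-type precursor array 3. Ly6d was 10.70 on the same array.

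By the test of the difference between stages on all 24 arrays, 11 genes named here passed. Stage and cell population cannot be told apart in it. Of these, Igf2bp3 and Serpinb9d also passed with the replicate block, whose pairing of leukaemias by number was not examined. Heterozygous leukaemias 4 to 7 did not contribute to this block. The other 9 did not pass with it. With array weights, Igf2bp3, Mc5r, Ms4a3, Plch1 and Cebpe passed. Edaradd had a stage difference of -1.46. The neutrophil granule protease Prtn3 (3.60), the myeloid membrane protein Ms4a3 (3.01), the granulocyte enzyme Padi4 (2.88), the granulocyte transcription factor Cebpe (2.19) and the melanocortin receptor Mc5r (3.98) were lower in heterozygous leukaemias than in those with both copies, and none of them differed past the test in precursors. Serpinb9d, a serpin of the granzyme inhibitor family (-5.36), the oncofetal RNA-binding protein Igf2bp3 (-3.08), the phospholipase Plch1 (-3.01) and the IL-2 receptor chain Il2ra (-2.88) were higher in heterozygous leukaemias, and likewise did not differ past the test in precursors. The complex I gene Ndufv1 had a stage difference of 0.67. Each value rests on 2 leukaemias with both copies. For Mc5r these measured 7.32 and 11.93, and its stage difference was 6.28 without the first and 1.67 without the second. In the same 2 leukaemias the neutrophil marker Ly6g measured 12.45 and 11.79, against 6.09 to 10.44 in heterozygous ones. S100a8, another neutrophil marker, measured 13.23 and 12.43, against 7.88 to 11.38. Neither passed between the leukaemia groups (adjusted p 0.0857 and 0.176, limma). The part of neutrophil content in the granulocyte genes above was not tested.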

How the results depend on the processing

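Against 5 genes called in precursors, the count was 0 with the 6 oncogene-bearing arrays alone, 0 with the replicate block, 2 with all 24 arrays in 1 fit, 77 with array weights and 16 with sex as a covariate, a fit identical to leaving out heterozygous array 3. It ran from 1 to 134 when single arrays were left out. Chosen after seeing the data, leaving out 3 arrays high in neutrophil markers gave 0 and leaving out 2 arrays low in mitosis genes gave 10. The counts under the other scalings, priors and filters stayed within 1.5 times of 5, though Rassf2 was not always among them. The 136 genes that differed between stages became 38 with array weights and 16 with the replicate block, and 52 to 1332 when single arrays were left out. The Pax5 difference lay between -0.36 and -0.14 and did not pass in any setting. The Bcr difference changed sign with array weights (0.070), and lay between -0.15 and 0.019 when single arrays were left out, above 0 without heterozygous precursor 2. The stage difference of Rassf2, near 0, lay between -0.60 and 0.61 when single arrays were left out, and was below 0 without leukaemia 2 with both copies, heterozygous leukaemia 3 or 5, or heterozygous precursor 1. The causes were not tested. No source used here names hybridisation batches.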

Other observations

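Of 15 measured genes of ERK pathway feedback, 4 reached an unadjusted p under 0.05 between the oncogene-bearing precursors, 2 in each direction. Etv5, an ETS transcription factor induced by ERK signals, measured 7.78, 8.03 and 7.76 in heterozygous precursors, against 7.49, 7.56 and 7.30 in precursors with both copies and 8.20, 8.03, 8.26 and 8.19 in wild-type precursors. S1pr3, a receptor for sphingosine 1-phosphate, measured 8.07, 7.99 and 8.38 in heterozygous precursors, against 7.49, 7.57 and 7.51 in precursors with both copies and 7.53, 7.30, 7.46 and 7.12 in wild-type precursors. Neither passed (log2 differences 0.41 ± 0.10 and 0.62 ± 0.12, SE, adjusted p 0.171 and 0.147, limma).

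Cytoplasmic ribosomal protein genes, the structural part of the ribosome, had a median log2 difference of 0.00 over 35 measured members, of which 2 reached an unadjusted p under 0.05. Creld2, a chaperone of the endoplasmic reticulum, led its list of unfolded protein response genes, with 9.11, 9.41 and 9.39 in heterozygous precursors, against 8.83, 9.01 and 8.57 in precursors with both copies (log2 difference 0.50 ± 0.14, SE, adjusted p 0.198, limma).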
